A study of Homo sapiens with 4 samples.

Results

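The aryl hydrocarbon receptor (AhR) pathway was described in the human lung cancer line H1299, which derives from a non-small-cell carcinoma, through 8 named genes: AHR, ARNT, ARNT2, AHRR, CYP1A1, CYP1B1, TIPARP and ALDH3A1. They were chosen by name and all 8 were present, with 80 annotated transcripts, among 58735 genes and 206601 transcripts. Poly(A)-selected RNA was sequenced from cells given 0.5 mM methylparaben for 48 h (a preservative, the methyl ester of para-hydroxybenzoic acid) and from cells given ethanol, with 2 libraries per group. The labels give neither the ethanol dose nor its exposure time, and they name no genetic change or further agent. H1299 is 1 established line, so the libraries say nothing of other lung cells. The design text states duplicates but not separate cultures. The p-values then measure no more than how far these libraries spread, which may be technical.

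AhR is a ligand-activated transcription factor of the bHLH-PAS family that waits in the cytosol in a complex with HSP90 and co-chaperones. Once a ligand such as a dioxin, a polycyclic aromatic hydrocarbon or a tryptophan metabolite binds, AhR enters the nucleus, pairs with ARNT and binds DNA elements with the core GCGTG. Its targets include the cytochrome P450 genes CYP1A1 and CYP1B1, whose enzymes oxidise aromatic hydrocarbons and estrogens, and the feedback inhibitors AHRR and TIPARP. In airway epithelium the pathway is known for its response to tobacco smoke.

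With methylparaben, CYP1B1 fell 14.4-fold and ARNT rose 8.83-fold. These were the 2 members with enough reads for a test, and they moved in opposite directions. Of the ARNT reads, 50% fell on a protein-coding transcript. AHR, ARNT2, AHRR, CYP1A1, TIPARP and ALDH3A1 had between 0 and 5 reads in each library and were not tested. Over all 8055 genes tested with edgeR, 36.9% were called at an adjusted p under 0.05, 18.5% higher and 18.4% lower with methylparaben. Both tested members passed the filter on low counts only through the group in which they were high. Genes that pass in this way are called more often: 45.4% of the 1033 genes that passed through ethanol alone were called lower, and 48.0% of the 969 that passed through methylparaben alone were called higher. The 2 calls are therefore no support for a change of the pathway as a whole.

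Stretches of the members' promoters that hold the AhR core element are shown because this element is what ties the target genes to the receptor. The windows run from 250 bases before to 50 bases after a RefSeq transcription start (GRCh38.p14), and both strands were searched for GCGTG. Windows were found for 5 members, 8 windows in all, and 5 of them held 7 matches. Capitals mark the core, and each run is printed 5′ to 3′ on the strand that reads GCGTG.
AHR, chr7:17298689-17298693, 37 bases after the start: tgttccgagaGCGTGccccggac
AHRR first window, chr5:321684-321688, 30 bases before the start: cgggcggctcGCGTGccggggtggg
AHRR second window, chr5:322363-322367, 247 bases before the start: ggcGCGTGacaggcaggg
AHRR second window, chr5:322568-322572, 42 bases before the start: agaagggtggGCGTGtgcgcgcgtt
CYP1A1, chr15:74725581-74725585, 57 bases before the start: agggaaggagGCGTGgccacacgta
TIPARP first window, chr3:156674448-156674452, 142 bases before the start, opposite strand: ccctgcgcgcGCGTGcgcgttcgtt
TIPARP first window, chr3:156674382-156674386, 208 bases before the start, opposite strand: ccgcgaggggGCGTGtcctttctcg

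The core was common in promoters at large, being present in 12832 of 35116 windows of the same length (36.5%). The longer element TNGCGTG, which contains the core, was present in 1935 windows (5.51%) and among the members' windows in the first AHRR window alone. The ARNT window held no core. A match is a run of letters and not a measured binding site. ARNT2, CYP1B1 and ALDH3A1 were not found in the promoter table.

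Reads in these data come from only part of each gene, which sets what can be said of the members. No transcript that lacks a base belonging to it alone had a read (0 of 70749). The counted reads are therefore taken here to stand on bases of 1 annotated transcript each. Whether a counted read could reach beyond them is not known, because the counting program is not named. For CYP1B1 the bases of a single transcript were 3145 of 6014 exonic bases (52.3%), and for AHRR 5229 of 7678 (68.1%). Smaller parts could be read in ALDH3A1 (34.7%), ARNT (31.9%), TIPARP (26.3%), CYP1A1 (24.0%), AHR (22.3%) and ARNT2 (13.6%). The bases that could be read in AHR did not include its long shared 3′ exons. They were 1307 bases of the distal 5′UTR and 20 coding bases of AHR-206, and 289 bases of AHR-204. Further ones were 94 bases of AHR-203, 61 bases of the 5′UTR of AHR-201 and shorter stretches of other transcripts. A low count for such a gene is therefore a low count on those bases and not a measure of its whole messenger RNA.

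**Figure D1:**
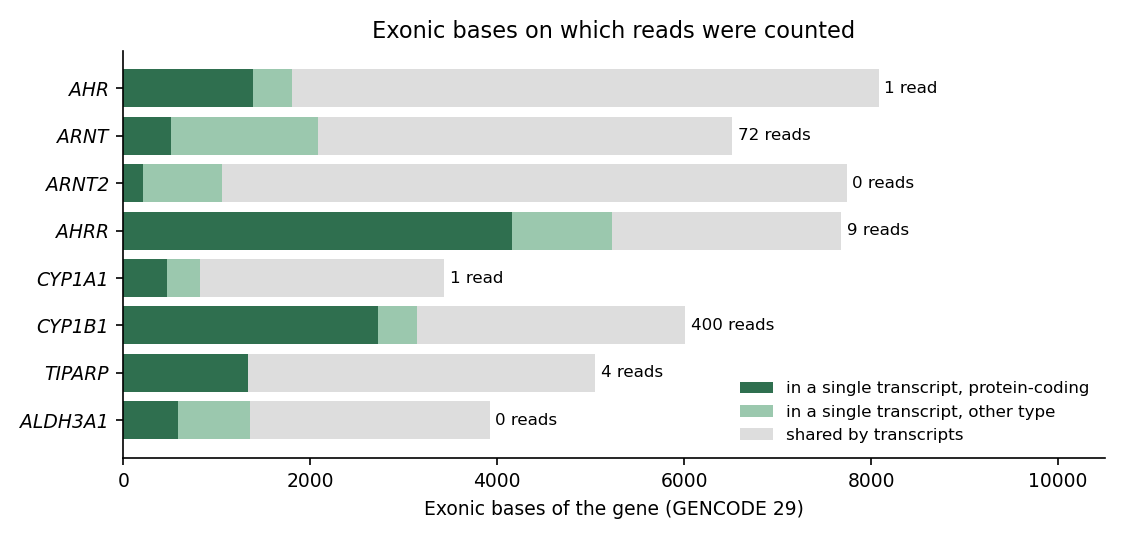
Horizontal bars show the exonic bases of each of the 8 genes, divided into bases in a single protein-coding transcript, bases in a single transcript of another type, and bases shared by transcripts; the text at each bar gives the reads summed over 4 libraries. CYP1B1 had 400 reads and ARNT 72, against 9 or fewer for each other gene, and AHRR, with the largest share of bases that could be read, had 9.

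Library totals were 2368658 and 2182058 counts for ethanol replicates 1 and 2 and 3760982 and 2068486 for methylparaben replicates 1 and 2. A gene with no read in a library could still have up to 1.27, 1.37, 0.798 and 1.45 CPM there (counts scaled to the library total), respectively, if 3 counts are the limit. Such limits and the count intervals given below cover counting error only. Of 6 epithelial markers, EPCAM, CDH1 and KRT19 had no read, KRT7 had 2, KRT18 54 and KRT8 91 over the 4 libraries. Of 5 mesenchymal markers, AXL had 10251 reads, VIM 557, FN1 31, ZEB1 4 and CDH2 1. No read fell on the 7 alveolar and airway or the 5 blood and immune markers. Methylparaben replicate 1 was the deepest library.

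The receptor and its partners come first. AHR, the receptor itself, had 0, 0, 0 and 1 counts in ethanol replicates 1 and 2 and methylparaben replicates 1 and 2, the order used throughout. ARNT2, a second partner best known from nervous tissue, had no read in any library. Neither gene differed detectably at this depth and on these bases.

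ARNT, the nuclear partner of AhR and of the hypoxia factors, had 1, 5, 44 and 22 counts, or 0.425, 2.16, 12.0 and 11.5 CPM after TMM scaling. Both methylparaben libraries were above both ethanol libraries, and the 2 methylparaben values lay close together. The mean rose from 1.29 ± 1.23 to 11.7 ± 0.324 CPM (SD, n = 2 per group). The log2 fold change was 3.14 ± 0.68 (SE), with an adjusted p of 0.00628, and 121 of the 8055 genes (1.5%) had a larger one. ARNT passed the filter on low counts through methylparaben alone, which favours a large rise, so this rank is no support for the change. From the counts alone the ratio of methylparaben to ethanol was 8.59 (exact binomial 95% interval 3.74 to 24.2). The size rests on the 6 ethanol reads: without ethanol replicate 1 the change was 5.26-fold (adjusted p 0.0448) and without ethanol replicate 2 it was 25.2-fold (adjusted p 0.00171), then resting on 1 ethanol read.

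The reads of ARNT (ENSG00000143437.20, chr1:150809705-150876768, minus strand) fell on 4 of its 12 transcripts. The protein-coding ARNT-202 had 1, 4, 23 and 8 counts and supplied 50% of all ARNT reads. Its readable bases were 389 bases of 3′UTR in exon 22 (chr1:150809705-150810093) and 60 bases of 5′UTR in exon 1. Its count ratio was 4.84 (1.87 to 15.9), with groups that did not overlap. In the authors' deposited table the adjusted p of ARNT-202 was 0.151.

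ARNT-203, a processed transcript without a coding frame, had 0, 0, 13 and 8 counts, at least 5.46-fold higher with methylparaben when 3 counts over the ethanol group are taken as the limit. The authors' deposited table lists an adjusted p of 3.3e-05 for it. ARNT-209, annotated as a retained intron, had 0, 0, 4 and 5 counts on 42 readable bases, and the interval of its count ratio starts at 1.54. ARNT-211, also a retained intron, had 0, 1, 4 and 1 counts, with a ratio of 3.90 and an interval of 0.437 to 185 that includes no difference. Non-coding transcripts supplied 29.2% (ARNT-203) and 20.8% (both retained introns) of ARNT reads. None of the 4 transcripts had enough reads to enter the transcript-level test.

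**Figure D2:**
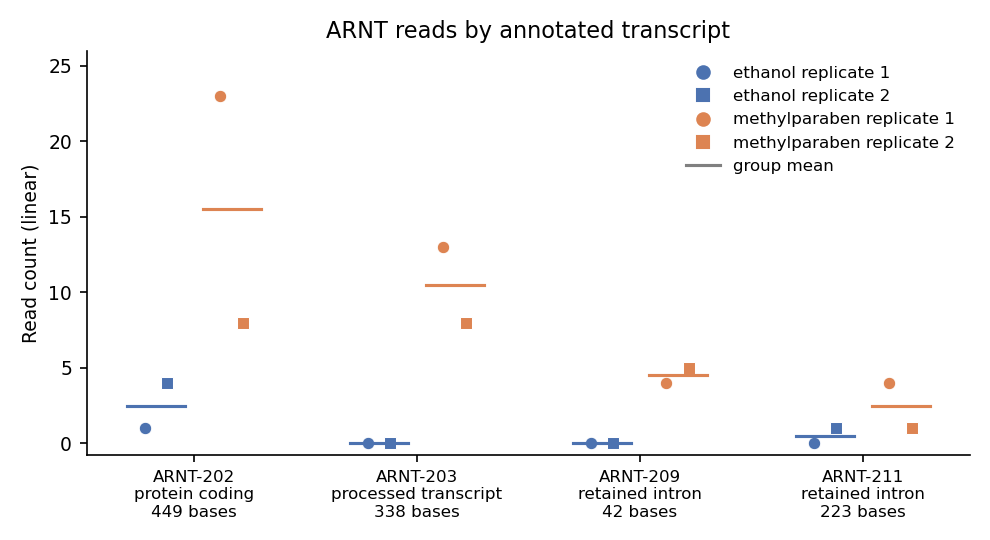
Read counts (vertical axis, linear) of the 4 ARNT transcripts with reads, one point per library with the group mean as a line; the label under each gives the annotated type and the bases that could be read. ARNT-203 and ARNT-209 had no ethanol read, whereas the coding ARNT-202 had 5 ethanol and 31 methylparaben reads.

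Among the target genes, CYP1B1 had most of the members' reads. It encodes the P450 that 4-hydroxylates estradiol and activates polycyclic aromatic hydrocarbons, and it is known from many tissues outside the liver. CYP1B1 had 190, 178, 27 and 5 counts, or 80.8, 77.0, 7.35 and 2.62 CPM after TMM scaling. The ethanol libraries differed little from each other and both methylparaben libraries were far below them, with methylparaben replicate 2 the lower. The mean fell from 78.9 ± 2.66 to 4.98 ± 3.34 CPM (SD, n = 2 per group). The log2 fold change was -3.85 ± 0.39 (SE), with an adjusted p of 0.000156, and 81 of the 8055 genes (1.0%) had a lower one. CYP1B1 passed the filter on low counts through ethanol alone, which favours a large fall, so this rank is no support for the change. The count ratio was 0.0679 (0.0458 to 0.0975). Without methylparaben replicate 1, the library with 27 reads, the fall was 29.7-fold.

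All CYP1B1 reads (ENSG00000138061.11, chr2:38066973-38109902, minus strand) came from the protein-coding CYP1B1-205. Of its 5250 bases, 2490 belong to no other transcript. They lie in the 3′UTR within exon 3 (chr2:38067507-38069177 and chr2:38069274-38070065, 2463 bases together) and in 27 bases of the 5′UTR in exon 1, with 0 coding bases among them. CYP1B1-204, which starts farther upstream and has 234 readable bases in its 5′UTR, had no read. Tested by transcript, CYP1B1-205 had a log2 fold change of -3.88 ± 0.39 and an adjusted p of 0.000112, where 19.1% of 9167 transcripts were called lower. In deposited FPKM, which divides by the full transcript length, CYP1B1-205 stood at 14.95, 14.90, 1.35 and 0.467. Per kilobase of the bases that could be read it stood at 32.2, 32.8, 2.88 and 0.971 CPM, which is higher because only 47.4% of its bases could be read.

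The summed level of the mesenchymal markers was lower in the same libraries as CYP1B1: 1335 and 1948 CPM with ethanol and 623 and 527 CPM with methylparaben. That of the epithelial markers, 3 of 6 with a read, was 16.9 and 9.62 CPM with ethanol and 15.4 and 13.5 CPM with methylparaben. AXL, a receptor tyrosine kinase, supplied most of the mesenchymal sum and fell (log2 fold change -1.41, adjusted p 0.000733). VIM, the intermediate filament vimentin, fell too (-1.19, adjusted p 0.00565). FN1 (7, 9, 10 and 5 counts), ZEB1 (1, 0, 0 and 3) and CDH2 (0, 1, 0 and 0) were not tested. The sum thus follows AXL and is no result about the mesenchymal list as a whole. In bulk RNA, fewer cells of a kind and less RNA per cell cannot be told apart, and the part of these markers in the CYP1B1 result was not tested.

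CYP1A1, the most widely used readout of AhR activity, had 1, 0, 0 and 0 counts, the read lying on CYP1A1-205. Only 24.0% of its exonic bases could be read. They were 74 and 206 bases in the 5′UTRs of CYP1A1-201 and CYP1A1-207, 192 bases of CYP1A1-205 and 352 of CYP1A1-208. Exonic bases that its transcripts share were taken as not counted. ALDH3A1, an aldehyde dehydrogenase induced through AhR in liver and in tumour cells, had no read. No difference was detectable for either gene at this depth and on the bases that could be read.

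The feedback inhibitors were also barely read. AHRR, which competes with AhR for ARNT, had 0, 2, 2 and 5 counts although 68.1% of its exonic bases could be read. Of these, 0, 2, 2 and 3 were on the coding AHRR-201, mainly its 3181-base 3′UTR stretch in exon 12, and 0, 0, 0 and 2 on the retained intron AHRR-205. The count ratio of the gene was 2.73 (0.520 to 27.0), an interval that includes no difference, and the groups overlapped. TIPARP, a mono-ADP-ribosyltransferase that limits AhR signalling, had 1, 2, 0 and 1 counts on the 5′UTRs of TIPARP-202 and TIPARP-205, at or under the limit of 3 counts in each group.

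**Figure D3:**
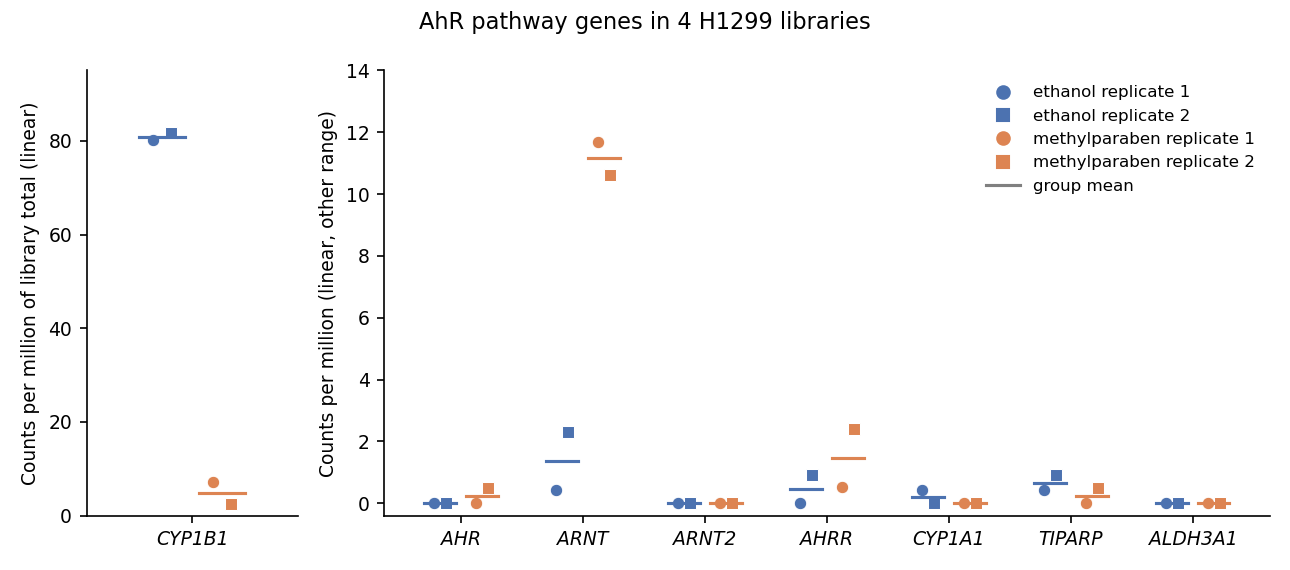
CPM of library total, not TMM-scaled (linear axes, CYP1B1 on its own range) for the 8 genes, one point per library with the group mean as a line; levels are not scaled for length, so they compare libraries within a gene. Both CYP1B1 methylparaben points lie far below the ethanol points and both ARNT methylparaben points above them, while the other 6 genes lie at 0 to 2.42.

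The members can be ordered by level once counts are divided by the bases that could be read. That division assumes that reads stand on those bases alone. In ethanol, CYP1B1 stood highest, at 25.5 and 25.9 CPM per kilobase of single-transcript exon in replicates 1 and 2. ARNT (0.203 and 1.10), TIPARP (0.317 and 0.689) and CYP1A1 (0.512 and 0) followed and overlapped with each other. AHRR stood at 0 and 0.175. Apart from CYP1B1 and ARNT in ethanol replicate 2, these values lie under the limit that 3 counts set, so they give no order. With methylparaben ARNT stood at 5.63 and 5.12 and CYP1B1 at 2.28 and 0.769, without overlap. AHRR (0.102 and 0.462), TIPARP (0 and 0.363) and AHR (0 and 0.268) followed and overlapped with each other, on 0 to 5 reads each.

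Genes whose pattern over the 4 libraries was nearest to that of CYP1B1 were sought among 1760 tested genes with a mean level within 2-fold of it. Nearest by Euclidean distance in centred log2 CPM was BNC2, a zinc finger protein gene, at 0.660, with 45.1, 45.4, 5.44 and 2.62 CPM. MIR222HG, the host transcript of a microRNA pair, followed at 0.759, and LINC00973, a long intergenic non-coding RNA, at 0.809. SERTAD4 came next at 0.847, and CYP27C1, a P450 that acts on retinoids, at 1.10. Their log2 fold changes were -3.38, -3.53, -4.11, -4.85 and -3.49 in this order, against -3.85 for CYP1B1. The likeness is a description over 4 libraries in 2 groups. These genes were picked by the same 4 values, so fold changes near that of CYP1B1 follow from the choice. BNC2, LINC00973, SERTAD4 and CYP27C1, like CYP1B1, passed the filter on low counts through ethanol alone.

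Beyond the 8 members, 109 genes in 7 lists cover the receptor complex, further targets and the relatives of the members. Of these, 70 had a read, 34 were tested, 7 were called higher and 11 lower, and 16 did not pass. The median log2 fold change of the 34 was -0.19, against 0.03 for all tested genes. Of the 34, 27 passed the filter on low counts in both groups. HSP90AA1, HSP90AB1, PER3 and PTGS2 passed through methylparaben alone and were called higher, and SIM2 and CYB5A passed through ethanol alone and were called lower. The counts of calls therefore cannot be set directly against the 18.5% and 18.4% of all genes.

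Of 15 genes of the receptor complex and its cofactors, 9 were tested, 2 were called higher and 4 lower, and the median log2 fold change was -0.11. HSP90AA1, the inducible cytosolic HSP90, rose from 8 and 5 counts in ethanol to 89 and 69 (log2 fold change 3.40 ± 0.46, adjusted p 0.00063). Retained-intron transcripts held 78.4% of its reads, and without them it had too few to be tested. HSP90AB1, the constitutive form, had 4, 2, 21 and 10 counts (2.06 ± 0.68, adjusted p 0.0383), and its call was lost whenever a single library was left out (adjusted p 0.183 to 0.317), with DESeq2 (0.197) and with the replicate block (0.0977). Both HSP90 genes have near-identical pseudogene copies elsewhere in the genome, and how reads were shared among copies is not given in the sources used here.

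NCOA2, a p160 coactivator that binds AhR and ARNT, fell from 206 ± 19.9 to 111 ± 5.06 CPM (-0.90 ± 0.18, adjusted p 0.00443). NCOA3, of the same family, fell by 0.78 on the log2 scale (adjusted p 0.0274), a call that was lost without ethanol replicate 1 (0.117), ethanol replicate 2 (0.0972) or methylparaben replicate 2 (0.0686). The NCOA3 call was also lost with DESeq2 (0.0578), with the replicate block (0.0584) and with no filter on low counts (0.0530), and with limma on log2 FPKM plus 1 its change was -0.10 (0.815). CUL4B, the scaffold of a ubiquitin ligase in which AhR can act as an adaptor, fell by 0.80 (adjusted p 0.00922, and 0.0934 without ethanol replicate 2 or 0.0590 with limma on log2 FPKM plus 0.1). KLF6, a zinc finger protein described as an AhR partner, fell by 1.93 (adjusted p 0.00986, and 0.115 without ethanol replicate 1). The co-chaperone PTGES3 (1.09) and the acetyltransferases EP300 (0.45) and CREBBP (-0.11) did not pass the test. Processed transcripts held 68.7% of the PTGES3 reads.

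Of 20 further AhR target genes, 8 had a read and 4 were tested, of which 2 were called higher and 2 did not pass, with a median log2 fold change of 1.11. NFE2L2, the transcription factor NRF2, had 10.2, 10.4, 37.3 and 26.7 CPM (1.64 ± 0.35, adjusted p 0.0057). PTGS2, the inducible cyclooxygenase, had 4.25, 10.4, 22.9 and 23.6 CPM (1.66 ± 0.45, adjusted p 0.0175). Its call was lost without ethanol replicate 1 (1.13, adjusted p 0.114), and without ethanol replicate 2 the change was 2.45. It was also lost with limma on log2 FPKM plus 1 (0.0518) or plus 0.1 (0.0699). HES1 (0.57) and CDKN1B (0.07) did not pass. PTGS2 passed the filter on low counts through methylparaben alone. Of such genes 48.0% were called higher, against 18.5% of all tested genes. The 2 calls are therefore no result about AhR targets as a group or about the fall of CYP1B1. The targets that were not tested have no result here.

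Of 15 bHLH-PAS relatives of AhR and ARNT, 6 were tested, 1 was called higher and 3 lower, with a median of -0.52. The clock genes ARNTL2, a close relative of ARNT, and CLOCK, its dimer partner, fell: ARNTL2 from 406 ± 29.9 to 163 ± 21.3 CPM (-1.31 ± 0.18, adjusted p 0.000596) and CLOCK from 109 ± 5.02 to 52.2 ± 6.54 CPM (-1.05 ± 0.22, adjusted p 0.00522). The CLOCK call was lost with limma on log2 FPKM plus 1 (0.0602) or plus 0.1 (0.0625). PER3, a repressor of the clock, had 1, 2, 62 and 34 counts, a ratio of 25.0 with an interval of 8.30 to 123. Of its reads, 98.0% were on a retained-intron transcript, and without retained introns it had too few to be tested. SIM2, a developmental transcription factor that also pairs with ARNT, had 15, 12, 2 and 1 counts, a ratio of 0.0867 (0.0168 to 0.282). Its call was lost whenever a single library was left out (adjusted p 0.0631 to 0.188). PER2 (0.29) and ARNTL (0.00) did not pass. Retained introns held 80.7% of the ARNTL reads.

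The 13 enzymes of the tryptophan and kynurenine route, which makes endogenous AhR ligands, had reads for 6 genes and none with enough for a test. Of 17 P450 partners and further P450 genes, 2 were tested. CYB5A, which encodes the electron donor cytochrome b5, had 26, 24, 5 and 4 counts and fell by 2.67 ± 0.58 (adjusted p 0.00653, and 0.0705 without ethanol replicate 1). Retained-intron transcripts held 76.3% of its reads, and without them it had too few to be tested. CYP2R1, a vitamin D 25-hydroxylase, did not pass (0.31), and transcripts annotated for nonsense-mediated decay held 90% of its reads.

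Of 11 relatives of TIPARP in the PARP family, 6 were tested, 1 was called higher and 2 lower, with a median of -0.51. PARP8 fell from 73.1 ± 22.8 to 16.2 ± 2.14 CPM (-2.16 ± 0.31, adjusted p 0.000839). PARP12, an interferon-inducible member, rose by 1.73 ± 0.42 (adjusted p 0.0101), with 73.7% of its reads on retained introns; its call was lost without them (adjusted p 0.237) and without ethanol replicate 1 (0.0747). PARP9 fell by 1.35 (adjusted p 0.0459, and 0.348 without ethanol replicate 1 or 0.0611 without methylparaben replicate 1). The PARP9 call was also lost with DESeq2 (0.124), limma voom (0.0621), the replicate block (0.0665) and without retained-intron transcripts (0.0539), and with limma on log2 FPKM plus 1 its change was -0.74 (0.116).

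Of 18 relatives of ALDH3A1, 7 were tested, 1 was called higher and 1 lower, with a median of -0.46. ALDH5A1, the mitochondrial succinic semialdehyde dehydrogenase, fell from 60.8 ± 10.2 to 20.4 ± 5.84 CPM (-1.55 ± 0.30, adjusted p 0.00379). ALDH3A2, the fatty aldehyde dehydrogenase beside ALDH3A1 on chromosome 17, rose from 7.08 ± 0.215 to 20.1 ± 1.90 CPM (1.49 ± 0.39, adjusted p 0.0151). Retained introns held 69.9% of its reads, and its call was lost without ethanol replicate 1 (adjusted p 0.0668) or ethanol replicate 2 (0.0528).

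**Figure D4:**
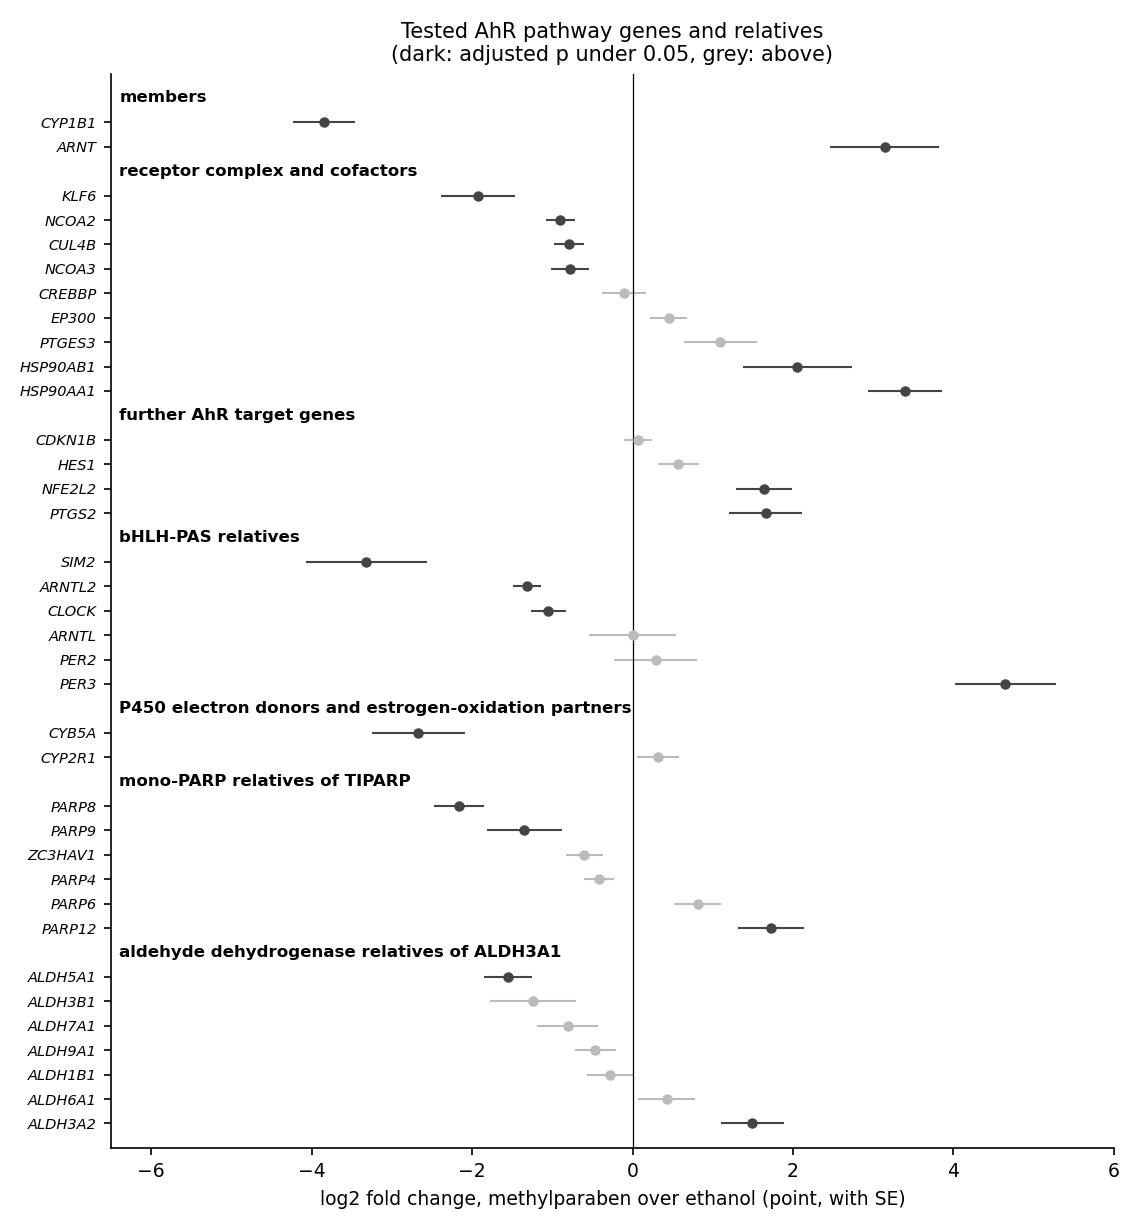
Log2 fold change with its SE (horizontal axis, methylparaben over ethanol) for the 2 tested members and the 34 tested genes of the lists, dark where the adjusted p was under 0.05. CYP1B1 lies at -3.85, lower than every list gene shown, while ARNT at 3.14 lies below HSP90AA1 (3.40) and PER3 (4.65).

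Across the 16 other ways of processing the counts, CYP1B1 ran from -4.89 to -3.10 on the log2 scale and ARNT from 2.39 to 4.65. Both stayed called in each. The lowest adjusted p, 6.86e-23 for CYP1B1 and 0.000167 for ARNT, came from edgeR with no filter on low counts. With all 4 libraries the highest, 0.0129 for CYP1B1 and 0.0303 for ARNT, came from limma on log2 FPKM plus 0.1. So small a p from 2 libraries per group depends on how the spread was estimated. Both ends of the ARNT range, and the lower end of the CYP1B1 range, came from leaving out 1 library.

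**Figure D5:**
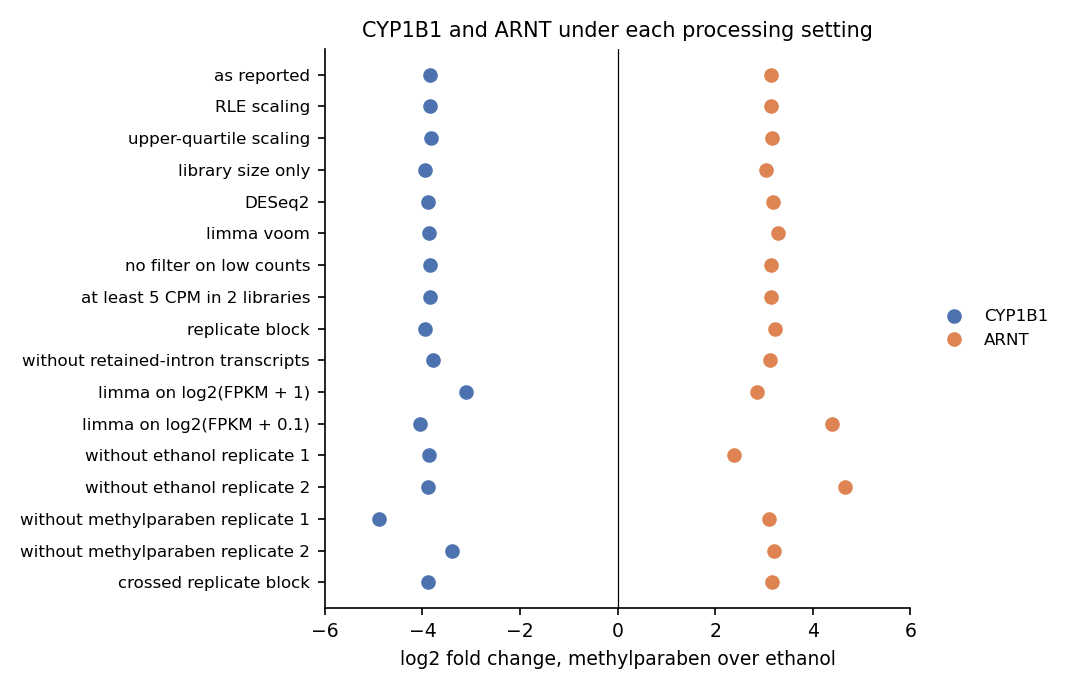
Log2 fold change (horizontal axis, methylparaben over ethanol) of CYP1B1 and ARNT as reported and under 16 alternatives, one row each. CYP1B1 stays between -4.89 and -3.10 and ARNT between 2.39 and 4.65, so no alternative brings either across 0.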

How the data were processed

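Poly(A) RNA of 4 H1299 libraries, 2 per group, was read as deposited. For every annotated transcript the authors deposited read counts, not normalised, and FPKM values made from them, with log2 of the FPKM plus 1 per the file headers. Each transcript's p-value, raw and adjusted, in the authors' deposited table was computed by a test that is not named. The submitters' processing notes list GRCh38, DESeq2, limma and edgeR without roles, and names of the aligner and counter were not given in the sources used here. All 206601 transcripts matched GENCODE release 29 in position.

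Counts were summed per Ensembl gene, filtered with filterByExpr (minimum count 10, minimum total 15), TMM-scaled and compared over 8055 genes with the two-sided quasi-likelihood test of edgeR 4.0.16 (R 4.3.3), Benjamini-Hochberg adjusted, threshold 0.05. Transcripts were tested likewise. The gene test was also run on simulated counts, but the outcome is not given here, so that run is no support for the calls. The SE is the log2 fold change over the square root of F. Count ratios are per library total, with exact (Clopper-Pearson) 95% intervals. Totals of 2068486 to 3760982 counts limit the precision.

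The alternatives were other scalings, DESeq2 1.42.0, limma 3.58.1 on counts (voom) and on log2 FPKM with pseudocounts of 1 and 0.1, a filter of 5 CPM in 2 libraries or none, no retained-intron transcripts, a replicate block and leaving out each library. The members and lists were chosen with earlier results of these data known. Named were all members, up to 6 called genes per list by smallest p, and the 5 genes nearest to CYP1B1. List genes that did not pass were named after their values were seen.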

Additional observations from a re-analysis of the deposited data

How the results depend on the processing

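CYP1B1 and ARNT kept their direction and call under all 16 alternatives. Over all genes, 2976 were called, against 1899 with limma on log2 FPKM plus 0.1 and 1677 to 3095 without single libraries; the 3613 called transcripts became 1841 to 3334. List genes called higher, 7, became 4 without retained-intron transcripts and 3 to 8 without single libraries, and those called lower, 11, became 6 to 11. Without ethanol replicate 1 the counts were the lowest in each case. Of the 18 named list genes, 7 kept their call in every alternative that gave a value; over 284 pairs of gene and alternative, 44 lost the call and 0 turned direction. PER3 and HSP90AA1, both counted among the 7, had no value without retained-intron transcripts. Where a group is left with 1 library, it is assumed to vary like the other group.

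The replicate numbers are not shown to pair the samples. The deviations of same-numbered libraries correlated at -0.15 over 8055 genes. With the replicate block 2488 genes and 2 members were called, and the log2 fold changes were -3.95 for CYP1B1 and 3.22 for ARNT. The crossed pairing, added after the data were seen, called 3292 genes.

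Depth limits the untested members: up to 3 unseen counts correspond to 0.798 to 1.45 CPM per library.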

Other observations

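Neighbouring transcripts of 2 members were looked at after their values were seen; neither had enough reads for a test. The 3′UTR bases on which CYP1B1 was read lie outside CYP1B1-AS1. CYP1B1-AS1, antisense to CYP1B1 (chr2:38073447-38231651), had 6, 2, 0 and 1 counts in ethanol replicates 1 and 2 and methylparaben replicates 1 and 2. Its count ratio of methylparaben to ethanol was 0.0976 (95% interval 0.00220 to 0.728), below 1 as was that of CYP1B1. TIPARP-AS1, a long non-coding RNA that shares a bidirectional promoter with TIPARP (chr3:156671862-156674378), had 2, 2, 18 and 6 counts, a ratio of 4.68 (1.61 to 18.6). TIPARP had 3 ethanol reads and 1 methylparaben read, a ratio of 0.260 (0.00496 to 3.24) that includes no difference. The bases that could be read were found without regard to strand, so the reads of CYP1B1-AS1 and TIPARP-AS1 are not shown to come from the strand of these genes.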
